A study of Mus musculus with 10 samples.

Results

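The ribosomal protein genes of the mouse and their pseudogenes were examined for CpG methylation in the early embryo. Members were taken by symbol from the autosomes of the RefSeq annotation of mm10, as symbols that begin with Rpl, Rps or Rplp and a digit, without Rpl10l, Rpl39l and the S6 kinases. This gave 359 genes, of which 82 were classed as protein-coding and 277, with -ps in the symbol or a pseudogene biotype, as pseudogenes. The level of a member is the share of methylated reads among all reads at the CpG cytosines within 1000 bp of either gene end, called its window below, and a window needed at least 3 cytosines. Windows were measured for 74 protein-coding members and 103 pseudogenes, 177 of the 24217 autosomal genes measured in all.

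The data came from reduced representation bisulfite sequencing, in which a restriction digest selects DNA rich in CpG and bisulfite treatment then turns unmethylated cytosines, but not methylated ones, into bases read as thymine. DNA was purified from single whole mouse embryos at embryonic day 7.5 on AllPrep columns, and libraries were made with the NEBNext Ultra II kit, per the labels. Of the 10 embryos in experiment 2, 5 were labelled control and 5 arsenic. The deposited table is named for F2 embryos, and whether these embryos or an earlier generation met the arsenic is not given. For the dose, timing and form of the arsenic and for the strain and sex of the embryos, nothing is given in the sources used here. The controls are described by that word alone. The deposited table numbers its libraries from 1 to 10 and names no group, which left control and arsenic embryos impossible to tell apart, and their comparison was not made. Each value is therefore pooled from all 10 libraries and is followed, where it matters, by the lowest, median and highest library. Library totals ran from 94583116 to 127102232 read counts over 2391795 cytosines, each read at least 10 times in every library.

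Each ribosome consists of a small and a large subunit, and each subunit is built of ribosomal RNA and of the proteins encoded by the Rps and Rpl genes. These genes are transcribed in nearly all cells, many from promoters in CpG islands, and their messenger RNAs often begin with a tract of pyrimidines, the TOP motif, through which growth signals control translation. Because the messages are abundant in the germ line, reverse-transcribed copies without promoter or introns have been inserted across mammalian genomes, and most are processed pseudogenes. CpG islands at active promoters are usually unmethylated, while most CpGs elsewhere become methylated in the embryo after implantation.

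The sequences printed here are promoters of 4 protein-coding members, from 250 bases before to 50 after the start site. They come from RefSeq on GRCm38.p6 (the mm10 coordinates) and run 5′ to 3′, with the start site at base 251. No sequence of a measured pseudogene was available to set beside them. Capitals mark CpGs with at least 1 cytosine in the deposited table. Rpl22l1 and Rpl37rt stand for the lowest member of at least 30 cytosines and the highest member, while Rpl4 and both starts of Rpl22 were chosen after their values were seen. Rpl22l1 lies at chr3:28805258-28805557 on the plus strand, Rpl4 at chr9:64173137-64173436 on the plus strand, the outer and inner starts of Rpl22 at chr4:152324186-152324485 and chr4:152325476-152325775 on the plus strand, and Rpl37rt at chr5:115110219-115110518 on the minus strand.
Rpl22l1: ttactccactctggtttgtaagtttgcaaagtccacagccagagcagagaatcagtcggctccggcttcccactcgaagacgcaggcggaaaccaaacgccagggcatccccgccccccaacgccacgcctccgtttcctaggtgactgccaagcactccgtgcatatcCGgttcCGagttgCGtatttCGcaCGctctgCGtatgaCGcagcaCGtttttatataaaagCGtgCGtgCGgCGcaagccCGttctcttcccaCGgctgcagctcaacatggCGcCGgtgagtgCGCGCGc
Rpl4: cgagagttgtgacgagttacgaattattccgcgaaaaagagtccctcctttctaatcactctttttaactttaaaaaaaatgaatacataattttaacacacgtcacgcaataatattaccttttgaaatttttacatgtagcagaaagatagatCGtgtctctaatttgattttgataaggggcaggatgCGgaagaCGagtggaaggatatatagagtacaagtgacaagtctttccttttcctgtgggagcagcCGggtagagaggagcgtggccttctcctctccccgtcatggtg
Rpl22 outer start: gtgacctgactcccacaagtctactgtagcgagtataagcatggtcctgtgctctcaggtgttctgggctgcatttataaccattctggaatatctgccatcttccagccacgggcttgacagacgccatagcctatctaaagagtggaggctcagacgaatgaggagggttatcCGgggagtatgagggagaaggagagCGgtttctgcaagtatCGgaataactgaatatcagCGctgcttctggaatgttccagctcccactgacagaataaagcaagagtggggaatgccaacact
Rpl22 inner start: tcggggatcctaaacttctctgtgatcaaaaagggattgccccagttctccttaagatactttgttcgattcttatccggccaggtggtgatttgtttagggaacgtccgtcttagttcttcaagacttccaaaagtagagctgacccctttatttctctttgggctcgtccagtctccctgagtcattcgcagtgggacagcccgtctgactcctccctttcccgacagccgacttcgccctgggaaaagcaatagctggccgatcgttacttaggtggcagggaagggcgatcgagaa
Rpl37rt: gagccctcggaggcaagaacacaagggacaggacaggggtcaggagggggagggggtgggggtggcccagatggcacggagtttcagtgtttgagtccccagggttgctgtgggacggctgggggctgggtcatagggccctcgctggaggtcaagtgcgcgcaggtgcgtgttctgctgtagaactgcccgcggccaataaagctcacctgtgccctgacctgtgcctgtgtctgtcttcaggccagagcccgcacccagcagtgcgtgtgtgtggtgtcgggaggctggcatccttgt

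In the promoter of Rpl22l1, a paralog of Rpl22, 19 of the 30 CpGs were measured, at 0.839% over 38 cytosines, with libraries from 0.458% to 1.49%. The promoter of Rpl4, a protein of the large subunit, holds 13 CpGs, of which 4 were measured, and its 7 cytosines were methylated at 0.625%. The outer start of Rpl22 has 8 CpGs, 4 of them measured, and its 7 cytosines were methylated at 50.5%, with libraries from 46.9% to 54.4%. No CpG was measured in the 300 bases of the inner Rpl22 start, which has 15 CpGs, or of Rpl37rt, which has 12. With 4 CpGs measured in each, the promoter was almost unmethylated at Rpl4, of 13 CpGs, and intermediate at the outer start of Rpl22, of 8.

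The protein-coding members were almost free of methylation and the pseudogenes were mostly methylated. The median window level was 1.72% for the 74 protein-coding members and 62.8% for the 103 pseudogenes, a difference of 61.0 percentage points. Over single libraries the protein-coding median ran from 1.45% to 2.16% and the pseudogene median from 61.0% to 65.5%. The gap was between 59.5 and 63.7 points in each of the 10 libraries, which is far wider than the spread between libraries of either median. Libraries 1 and 7 had the lowest pseudogene medians, both at 61.0%, and library 2 the highest. No test was run on this difference, since the libraries mix both groups and genes are not replicates.

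Of the protein-coding members, 68 of 74 lay under 20%, which is 91.9% beside 70.0% of all 14567 protein-coding genes measured. Under 5% lay 56 of the 74 members, beside 6466 of the other 14493 protein-coding genes. Over 50% lay 3 members, 4.05% beside 13.3% of all protein-coding genes. Of the pseudogenes, 91 of 103 lay over 50%, which is 88.3% beside 72.8% of all 2493 pseudogenes measured, and 2 lay under 20%, 1.94% beside 6.74%. Each kind of member lay mostly on the same side as the class it belongs to. The other 14493 protein-coding genes had a median of 6.92% and the other 2390 pseudogenes one of 58.1%. Whether the members differ from their class beyond this was not tested.

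**Figure D1:**
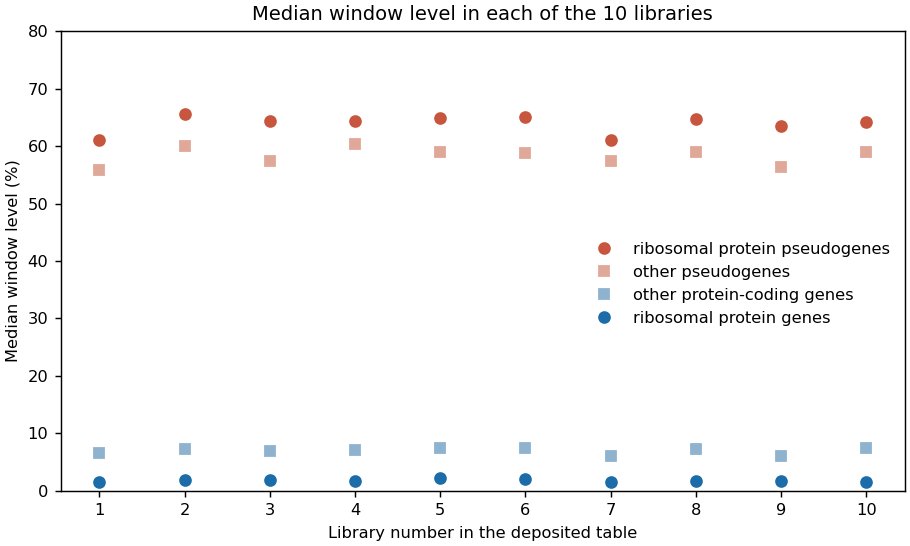
Median window level (%, vertical axis) in each of the 10 libraries (horizontal axis, the table's own numbers) for ribosomal protein genes, ribosomal protein pseudogenes and the other genes of either class; each point is 1 library. The protein-coding medians stay between 1.45% and 2.16% and the pseudogene medians between 61.0% and 65.5%, with no overlap.

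The kinds of member also differ in how many cytosines the assay reaches, with a median of 60 per window in protein-coding members and 13 in pseudogenes. The contrast was present within each class of cytosine number. With 30 or more cytosines, 63 protein-coding members had a median of 1.80% and 7 pseudogenes one of 61.8%, beside 4.00% and 48.3% for other protein-coding genes and pseudogenes. With 10 to 29 cytosines the medians were 0.996% for 10 protein-coding members and 63.1% for 59 pseudogenes, beside 15.5% and 60.1%. Among windows of 3 to 9 cytosines there were 37 pseudogenes, with a median of 60.1%, and a single protein-coding member, Rps28, at 3.54%. Read depth was alike, with a median coverage per cytosine and library of 38 and 39.

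**Figure D2:**
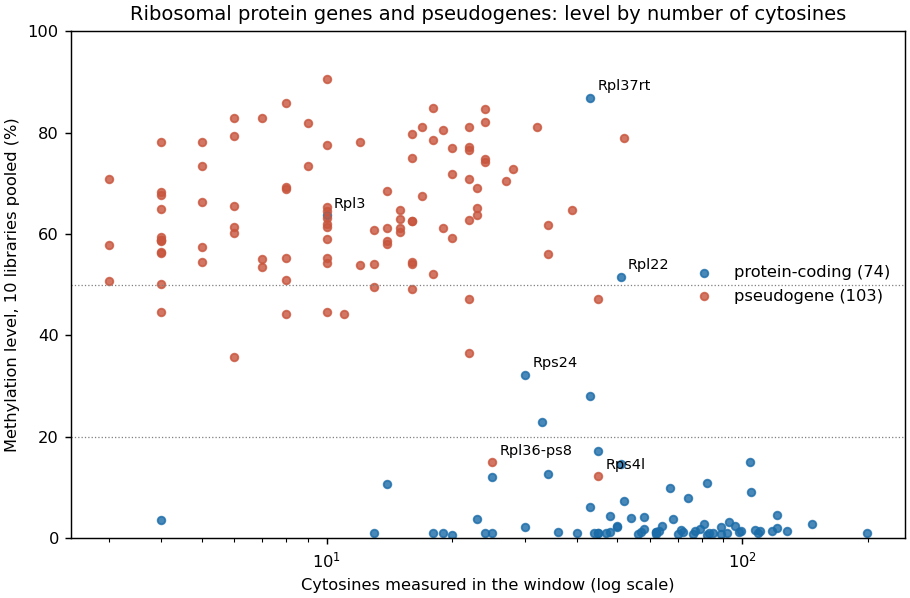
Level pooled over the 10 libraries (%, vertical axis) against the number of cytosines measured in the window (horizontal axis, log scale), 1 point per member, with dotted lines at 20% and 50%. Protein-coding members lie along the bottom from 4 to 199 cytosines except for a few named genes, and pseudogenes lie above 50% apart from 12 of them.

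Among the large-subunit genes the median level was 2.06% (43 members) and among the small-subunit genes 1.36% (28 members). The acidic stalk proteins, which recruit elongation factors to the ribosome, were low as well. Rplp1 stood at 0.658% (libraries 0.373% to 1.33%, median 0.634%), Rplp2 at 0.814% (0.199% to 2.85%, median 0.666%) and Rplp0 at 3.80% (2.03% to 5.31%, median 3.90%). The lowest levels among members of at least 30 cytosines were those of Rpl22l1, Rplp1, Rps26, Rpl4 and Rps3. Rpl22l1 had 0.616% over 82 cytosines, with libraries from 0.419% to 0.834% and a median of 0.645%. Rps26, a small-subunit protein at the exit of the messenger RNA, had 0.708% over 62 cytosines (0.528% to 1.24%), Rpl4 0.732% over 70 (0.464% to 1.44%) and Rps3, near the entry of the messenger RNA, 0.754% over 56 (0.236% to 1.22%). The library ranges of these 5 genes overlap. Rpl36al had the most cytosines, 199, at 0.968%.

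The paralogs and partners of ribosomal proteins were not all alike. Rpl7l1, which takes part in the assembly of the large subunit, stood at 1.47% (0.753% to 2.00%) over 71 cytosines. Rps19bp1, which encodes a binding partner of Rps19, stood at 7.33% (5.23% to 10.5%) over 52. Rpl3l, the muscle paralog of Rpl3, stood at 14.6% (11.8% to 20.2%), a mixture of a 5′ end at 40.8% (22 cytosines, 36.5% to 46.3%) and a 3′ end at 2.32% (29 cytosines, 1.65% to 3.75%) that lies within 1000 bp of an end of Msrb1. The libraries of the 5′ and the 3′ end of Rpl3l did not overlap. Rps27l was not measured by the rule, but both of its listed start sites lie inside the gene, where cytosines within 200 bp were methylated at 0.854% and 0.760%.

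Most start sites lay in unmethylated DNA. RefSeq promoters list 74 start sites for 62 of the protein-coding members, and 57 of these, in 49 genes, had at least 3 cytosines within 200 bp. Of the 57, 55 lay under 5%, between 0.213% and 3.04%, in 47 genes. The exceptions were the outer start of Rpl22 at 49.95% and the start of Rpl37rt at 80.3% (3 cytosines). Within the 300-base promoters themselves, 39 of 40 measured members lay under 5%, with a median of 0.829%, beside 1.17% for 6665 other protein-coding genes, of which 83.5% lay under 5%. Rps2, missed by the rule with 2 cytosines at its gene ends, had 1.01% over 71 cytosines round its listed start 1942 bp inside the annotated span.

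In bins of 200 bp the median of the members was 0.827% just upstream of the start and 0.958% just downstream, and stayed at 0.876% from 400 to 600 bp into the gene. It reached 2.43% between 800 and 1000 bp downstream (19 genes), where other protein-coding genes were at 5.97%, and 12.1% between 1000 and 800 bp upstream (6 genes), where the others were at 13.3%. In that upstream bin the medians were close. The quartiles there were 6.24% and 19.8% for the members and 1.99% and 42.7% for the others. The downstream medians of the members were lower. Neither comparison was tested.

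**Figure D3:**
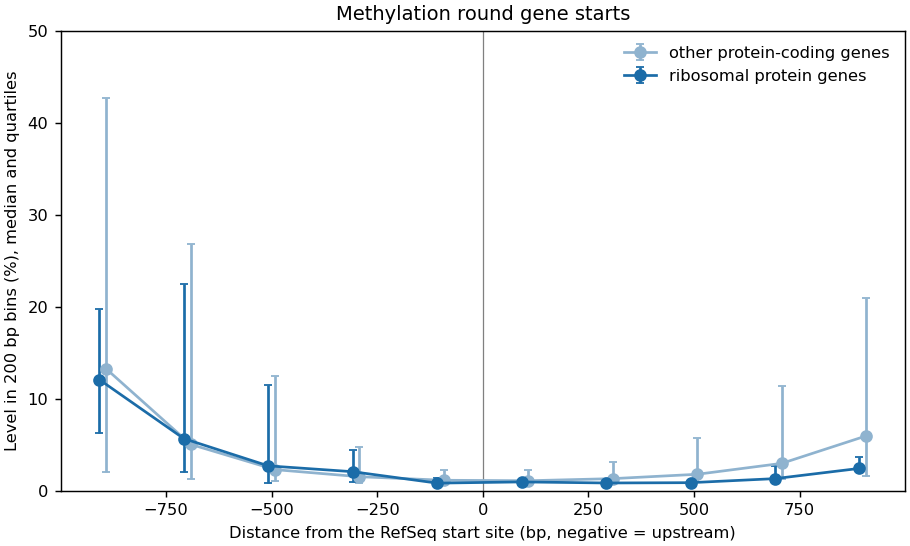
Methylation level in 200 bp bins (%, vertical axis, median over genes with bars for the quartiles) by distance from the RefSeq start site (bp, horizontal axis, negative upstream) for ribosomal protein genes (6 to 41 per bin) and other protein-coding genes (1280 to 6584 per bin). Both sets are near 1% at the start and rise away from it, to 12.1% and 13.3% in the farthest upstream bin.

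Promoters were compared for the 55 measured members with a listed start, taken at the start nearest to the outer gene end. They hold a median of 21 CpGs per 300 bases, beside 14 in 16394 other protein-coding promoters. The members had to have a measured window, while the others were taken whether measured or not. The assay selects DNA rich in CpG, and how much of the differences given here follows from that choice was not tested. The letters CCGG, which the enzyme MspI of standard reduced representation protocols cuts, were present in 92.7% beside 63.2%, and the enzyme behind these libraries is not named in the labels. CCGGAA, the core of sites bound by ETS factors, was found on either strand in 43.6% (24 promoters) beside 19.5%, and every CCGGAA holds a CCGG. The pyrimidine stretch CTTTCC was found on either strand in 41.8% (23 promoters) beside 25.9%, and TATAAA in 7.27% (4 promoters) beside 13.5%. These counts describe letters in the window only.

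Among the measured members, transcript 3′ ends were more often methylated than 5′ ends. The median over 55 measured 5′ ends was 1.26%, with 47 under 5%. Over 16 measured 3′ ends it was 42.7%, with 9 at 20% or more and 6 under 5%. In 16 genes with both ends measured the 3′ end was higher in 12. The ends of other protein-coding genes were not summarized in this way, so the order cannot be called particular to the members. At Rps15, whose protein sits in the head of the small subunit, the 5′ end had 0.803% over 60 cytosines (0.633% to 1.47%) and the 3′ end 31.8% over 22 (25.4% to 42.6%). Rps14 had 0.868% over 71 cytosines at its lower-coordinate end (0.380% to 1.60%) and 56.5% over 33 at the other (49.96% to 61.6%), with no strand in the table used. In both genes the libraries of the ends did not overlap. Rps15 and Rps14 were chosen after their values were seen. At Rpl41, also chosen that way, the order was the other way round, with 27.0% over 19 cytosines at the 5′ end (19.8% to 40.8%) and 9.25% over 66 at the 3′ end (6.44% to 13.5%).

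Of the 6 protein-coding members at 20% or more, Rpl21, Rps24, Rpl22, Rpl3 and Rpl37rt are described here. The members on either side of that line were Rpl38 at 17.2% and Rpl21 at 22.9%. In Rpl21 and Rps24 an unmethylated stretch at a gene end lay beside methylated cytosines farther out. Rpl21 (chr5:146832890-146837032), a large-subunit gene, had 27 cytosines on the gene side of its lower-coordinate end at 0.536% (libraries 0% to 1.85%, where a count of 0 among 434 reads allows up to 0.691%) and 6 on the outer side at 45.1% (40.1% to 53.9%). Rps24 (chr14:24490678-24496960), a small-subunit gene mutated in some patients with Diamond-Blackfan anaemia, had 18 cytosines at 0.661% on the gene side of its 5′ end, 8 upstream at 54.9% (48.6% to 58.0%) and 4 at its 3′ end at 71.9% (63.3% to 80.7%).

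Within 500 bp of the ends the levels of Rpl21 and Rps24 were 0.536% and 0.661%. At that distance 67 of 73 measured members lay under 20%, and the exceptions were Rpl8 at 20.6%, Rps29 at 25.9%, Rpl3l at 30.5%, Rpl22 at 56.5%, Rpl3 at 63.8% and Rpl37rt at 80.1%. A similar view comes from the lowest 200 bp stretch of at least 3 cytosines in each window, a measure added after the levels were seen. It lay under 5% in 71 of 74 protein-coding members, beside 72.8% of all protein-coding genes, and the exceptions were Rpl22 at 23.9%, Rpl3 at 63.8% and Rpl37rt at 67.7%. A minimum is lower where a window has more cytosines, so the count is read only beside that share.

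Rpl22 (chr4:152324436-152334082), a large-subunit protein that also binds other RNAs, was intermediate, at 51.6% over 51 cytosines, with libraries from 47.7% to 54.2% and a median of 51.5%. Its 5′ end stood at 37.4% (33.6% to 42.5%) and its 3′ end at 73.7% (69.5% to 77.0%). RefSeq lists a second start for Rpl22, 1290 bp inside the first, outside the window of the rule. In the 1000 bp downstream of that inner start, 39 cytosines were methylated at 0.764%, with libraries from 0.177% to 1.96%. The annotated 5′ end and the unmethylated stretch of Rpl22 therefore lay apart. The level of 51.6% pools the 5′ end at the outer start with the 3′ end and leaves that stretch out.

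Rpl3 (chr15:80077781-80083406), a protein near the peptidyl transferase centre, was measured at only 10 cytosines, all outside its lower-coordinate end, at 63.8% with libraries from 46.7% to 71.5% and a median of 64.5%. The table used gives no strand for Rpl3, and no cytosine was measured near its other end, so its level says nothing of its promoter where that lies elsewhere. Rpl37rt (chr5:115102922-115110268), annotated as protein-coding with Rpl37 among its synonyms, was the most methylated of the 74, at 86.9% over 43 cytosines, with libraries from 83.4% to 89.3% and a median of 86.7%. Its 5′ end had 82.9% (79.5% to 87.4%) and its 3′ end 88.3% (84.6% to 91.0%). Rpl37 itself stood at 0.944% over 25 cytosines, with its libraries between 0.150% and 1.31%, so the ranges of the 2 genes were far apart. Rpl37rt lies within 1000 bp of an end of Acads.

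**Figure D4:**
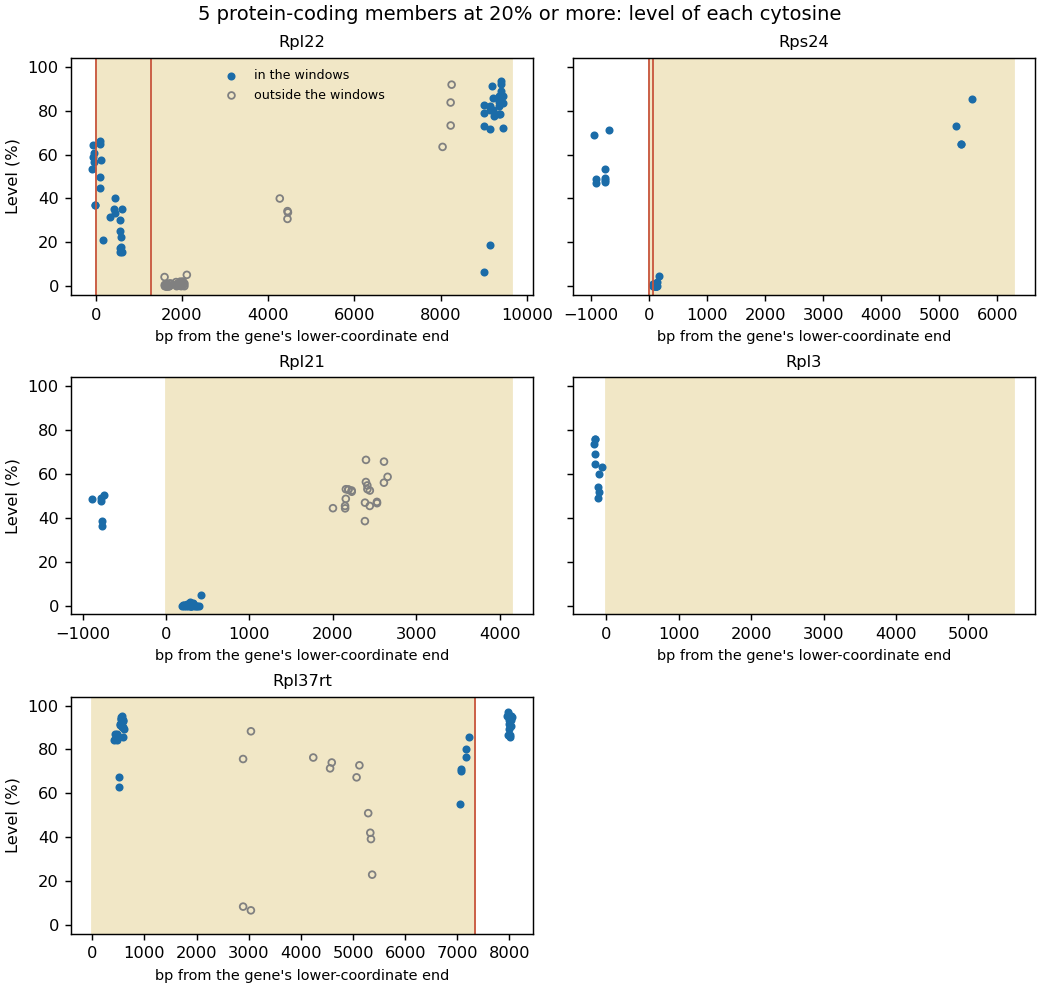
Level of each cytosine (%, vertical axis) by position (bp from the gene's lower-coordinate end, horizontal axis) in 5 protein-coding members at 20% or more; filled points lie in the windows, open points between them, shading is the annotated gene and red lines are listed start sites. Rps24, Rpl21 and, downstream of its inner start, Rpl22 hold a run of cytosines near 0%, and neither Rpl3 nor Rpl37rt does in the windows.

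The pseudogenes spread between 12.1% and 90.6%, with quartiles of 55.6% and 73.8%. Those nearest the 50% line were Rpl38-ps1 at 49.6% and Rpl10a-ps1 at 50.1%. Libraries differed more at pseudogenes than at protein-coding members, with a median range of 13.4 points beside 1.62. Their windows hold fewer cytosines, and a level near the middle of the scale carries a larger counting error; the part of either was not tested. The widest ranges were at Rpl29-ps5 (53.8% to 82.9%, 10 cytosines), Rpl27-ps1 (51.6% to 79.7%, 15 cytosines) and Rpl9-ps8 (48.6% to 73.5%, 10 cytosines). Their pooled levels were alike, at 65.2%, 63.0% and 64.6%, and the library medians were 63.7%, 61.4% and 66.0%. No library was the lowest or the highest at all 3 of them.

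Only Rps4l and Rpl36-ps8 lay under 20%. Rps4l (chr6:148354656-148355596), a transcribed pseudogene in the protein-coding gene Tmtc1, had 12.1% over 45 cytosines, with libraries from 8.03% to 17.4% and a median of 12.2%. Its 11 cytosines outside the copy stood at 5.07%. The nearest end of another annotated gene was 85981 bp away. Rpl36-ps8 (chr4:116839880-116840244) had 14.9% over 25 cytosines, with libraries from 7.53% to 20.3% and a median of 15.1%, and lay 9275 bp from Gm12996, an annotated long noncoding RNA gene. Both were low in every library, and at most 1 library reached 20% in either. Next among windows of 10 or more cytosines came Rps2-ps7 at 36.5% (30.7% to 48.9%), Rpl30-ps7 at 44.2%, Rps19-ps10 at 44.6% and Rpl15-ps6, of 45 cytosines, at 47.1%. The lowest 200 bp stretch lay under 5% in 1 of 101 pseudogenes, Rpl38-ps1, at 2.04% over 4 cytosines, beside 5.68% of all pseudogenes.

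Among the most methylated copies of 10 or more cytosines were Rps2-ps11 at 90.6% (83.0% to 97.5%), Rpl15-ps3 at 84.9% (77.9% to 91.5%), Rps26-ps1 at 84.6% (79.7% to 87.4%), Rplp2-ps1 at 82.0% (79.0% to 84.8%) and Rps19-ps11 at 81.1% (78.3% to 85.5%). Their library ranges overlap. Of these 5, Rps2-ps11 lies within Usp4, Rps26-ps1 within Wwp2, Rplp2-ps1 within Wdr89 and Rps19-ps11 within Pdss2. Rps13-ps4, within Taf1c, had the most cytosines of any pseudogene, 52, and stood at 78.9% (73.9% to 83.1%).

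Pseudogenes inside another gene were more methylated than the others. The 40 copies within a protein-coding or long noncoding RNA gene had a median of 70.7% and the 63 others one of 61.2%, a difference of 9.46 points that was positive in 10 of 10 libraries, between 4.46 and 13.4 points. Other pseudogenes showed the same order, with 63.6% in a host (665) and 56.6% elsewhere (1725). Copies of small-subunit genes had a median of 72.1% (38) and copies of large-subunit genes one of 61.9% (63), and the small-subunit median was higher in 10 of 10 libraries. A host gene was present for 20 of the 38 and 18 of the 63. Outside hosts the medians of the small and large subunit were 60.4% and 61.2%, and inside hosts 74.9% and 66.3%. The small-subunit copies were thus higher inside hosts and slightly lower outside them. In 21 pseudogenes with at least 3 cytosines both in the copy and beside it the copy was higher in 14. The medians were 58.9% and 58.1%, and the median difference within a pseudogene was 4.26 points. An end of another gene lay within 1000 bp of 9 of the 103 pseudogenes, and their median was 57.3%.

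Copies could be set beside the gene they are named for in 87 cases, from 36 genes. All 87 were above that gene, by a median of 60.1 points and by at least 12.3. Of the 74 measured protein-coding members, 64 lay below the lowest pseudogene of all. Most pairs could thus not come out otherwise, and the count restates the difference between the kinds of member. Rpl19 had the most measured copies, 9, with a median of 63.8% beside 1.01% at Rpl19. The 8 copies of Rpl21 had a median of 59.8% beside 22.9%, the 8 of Rps19 77.4% beside 1.08% and the 7 of Rpl31 64.9% beside 0.895%. Smaller families spread as widely, and the 4 copies of Rps2 ran from 36.5% to 90.6%. Copies of 1 gene share sequence, so reads from near-identical copies may be misplaced or lost, and the authors' handling of them is not given in the sources used here.

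**Figure D5:**
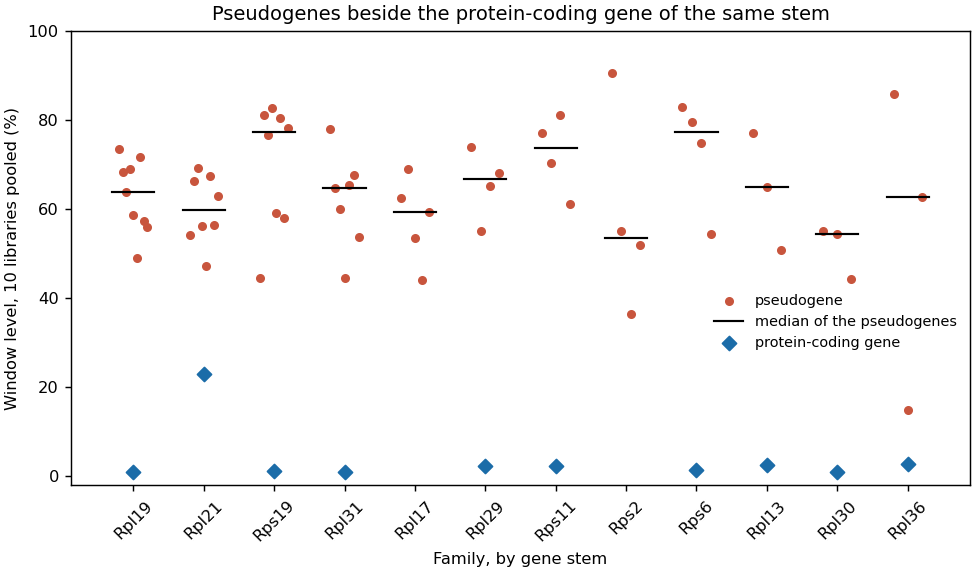
Window level pooled over the 10 libraries (%, vertical axis) for each measured pseudogene (circles) in families of 3 or more (horizontal axis, by gene stem), with the family median (bar) and the protein-coding gene where it was measured (diamond). The diamonds lie under 3% except Rpl21 at 22.9%, and all circles lie above the diamond of their family.

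Coverage of the set was uneven. The rule reached 90.2% of the protein-coding members beside 70.5% of all protein-coding genes, and 37.2% of the pseudogenes beside 26.8% of all pseudogenes. The 8 protein-coding members without a measured window were Rps2, Rpl17, Rpl27a, Rpl32l, Rps23rg1, Rps27, Rps27l and Rps27rt, of which all but Rps2 had 0 cytosines. Of the pseudogenes, 165 had 0 cytosines and 9 had 1 or 2, with levels from 42.3% to 77.4%. The 3 pseudogenes with exactly 3 cytosines ran from 50.8% to 70.8%. The values therefore describe the members that the assay reaches, and those without cytosines were not analysed here. Among the pseudogenes of the rule, Rpl34-ps1 and Rpl31-ps12 carry the biotype protein-coding and Rps18-ps4 the biotype lncRNA, and none of these was measured. No cytosine was shared by members.

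Other genes of translation resembled the protein-coding members. Of 20 genes outside the symbol rule whose messages are TOP mRNAs, 19 were measured, all under 20% beside 70.0% of all protein-coding genes, with a median of 1.19%. They ran from Eif3e, a subunit of an initiation factor, at 0.413% to Pabpc1, the poly(A) binding protein, at 10.97%, with Eef1a1, the main elongation factor, at 0.747%. Of 20 genes of ribosome assembly and of RNA polymerase I, 19 were measured, with a median of 1.81%, and 17 lay under 20%. Nop56, a core protein of box C/D particles, stood at 0.734% and Ncl, nucleolin, at 0.803%. The exceptions were Ubtf, a factor of ribosomal RNA transcription, at 44.0% over 3 cytosines, and Nop10, a protein of box H/ACA particles, at 60.2% over 23 (55.9% to 63.8%). These lists were chosen with earlier results of these data known.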

How the data were processed

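Per the submitters' processing notes, the authors used Trim Galore, Bismark and methylKit on mm10, and no role, version or setting is given there. Deposited were read counts per CpG cytosine under methylKit's column names, per the file headers: coverage, methylated and unmethylated reads for 10 libraries, not normalized, with strands kept apart. None of the 30 per-sample columns names a sample, and the planned exact permutation test of control against arsenic was therefore not run. No test between groups of libraries or of genes was made, and single libraries were checked by Dixon's criterion at 95%.

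From these counts, window levels were computed as summed methylated over summed coverage with Python 3.11.15, numpy 2.4.6 and pandas 2.3.3. Windows, thresholds of 20% and 50% and genes to name followed written rules: every protein-coding member at 20% or more, the 5 lowest of at least 30 cytosines, 8 fixed genes, the 6 lowest, 6 highest and 3 largest pseudogenes, and the 3 widest library ranges, with no pseudogene promoter sequence in the tables used; 1 protein-coding member and 1 pseudogene that these rules name are not reported here. The members and lists were chosen with earlier results of these data known. Promoters, start sites and strand came from RefSeq for GRCm38.p6, which matched 55 of the 74 protein-coding members, each taken at the start nearest to its outer end, and all 149927 promoter cytosines fell on the expected letter. On simulated counts, all 177 windows fell on the right side of 20%. The simulated levels were set away from 20% and were even within a window. The check therefore covers the computation only and says nothing of mixed windows near that line, such as Rpl21. Total coverage was 94583116 to 127102232 per library. Without molecular identifiers, and with a read counted at each CpG it spans, reads are not independent molecules, and the limit that a count of 0 allows (3 counts) covers counting error only. Alternatives were the coverage minimum, distance, cytosine number, averaging, gene end, neighbouring genes, paralogs and each library left out.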

Additional observations from a re-analysis of the deposited data

Results flagged for a closer look

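In 35 levels examined over the 10 libraries, a single library stood apart from the rest at 3 genes, where chance alone gives about 1 in 20, or 1.75 of 35. At Rps26 library 10 had 1.24%, and the next highest library 0.853%. At Rpl4 library 9 had 1.44%, beside 0.896% in the next. At Rplp2 library 5 had 2.85%, beside 1.39% in the next. The libraries mix control and arsenic embryos, so a high library cannot be placed in a group. All 3 levels stay under 3%, and the cause was not tested.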

How the results depend on the processing

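No paired analysis was possible because the numbers 1 to 10 of the libraries match no replicate number of the labels. Leaving out each library in turn kept the protein-coding median between 1.61% and 1.77%, the pseudogene median between 62.3% and 63.1%, their difference between 60.7 and 61.4 points, the protein-coding members under 20% at 68 to 68 and the pseudogenes over 50% at 89 to 92. Where each library had to cover a cytosine 20 times, the medians were 1.29% and 64.9% and their difference 63.6 points. Within 500 bp they were 1.01% and 64.8%, with a difference of 63.8 points. The gene end with more cytosines gave a protein-coding median of 1.17%. Members with no other gene end within 1000 bp gave 1.39%, and 27 of 29 lay under 20%. At least 10 cytosines left 57 of 66 pseudogenes over 50%, and within 3 to 9 cytosines the difference was 56.6 points, from 1 protein-coding member. Levels moved by more than the standard deviation over the libraries in 6 of 28 named members under the coverage minimum. They did so in 8 of 30 within 500 bp and 7 of 32 with a mean over cytosines. Without a library the count was 0 of 320 cases. Leaving out 1 of 10 libraries can hardly move a pooled level that far, so this last count says nothing of stability. The direction of the difference was the same in every setting. At Rpl21 the level was 40.4% under the coverage minimum, 0.536% within 500 bp and 8.67% as a mean over cytosines, so the side of 20% on which it lies depends on the setting. Rplp0 fell to 0.722% under the coverage minimum. Windows of few cytosines and pseudogenes outside CpG-rich fragments limit what the depth can show.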

Other observations

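Members on chromosome X lay outside the rule and gave the same order of levels, in libraries whose sex is not given. Rps4x, the X-linked gene of a small-subunit protein, stood at 4.59% over 49 cytosines with libraries from 2.23% to 6.52%. Rpl10, which joins the large subunit late in its assembly, stood at 6.36% over 39 cytosines (1.92% to 13.0%), and Rpl39, a protein of the exit tunnel, at 14.6% over 15 (9.20% to 23.7%). The X-linked pseudogenes of 3 or more cytosines were far higher. Rpl13-ps5 had 63.9% (50% to 80.4%), Rpl30-ps10 72.7% (68.6% to 81.6%), Rpl7l1-ps1 76.4% (67.6% to 90.7%) and Rpl3-ps1 77.3% (61.3% to 86.6%). Rpl7a-ps12 and Rps7-ps3 overlap and share the same 24 cytosines, at 76.5% (68.3% to 81.6%). The highest X-linked protein-coding library, at 23.7%, lay below the lowest library of these pseudogenes, at 50%.

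Nop10 and Ubtf were the only measured genes of the assembly list at 20% or more, and Rpl22, Rpl3 and Rpl37rt the only protein-coding members over 50%.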
